A study of Mus musculus with 6 samples.

Results

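Neutrophils pass through a series of stages in bone marrow, and each stage is marked by the granule proteins being made at the time. Primary granule proteins such as myeloperoxidase and elastase are made first, and secondary granule proteins such as lactotransferrin and cathelicidin come next. Gelatinase granule proteins such as the gelatinase Mmp9 follow, and cells close to release stop granule synthesis and carry receptors for chemokines and cytokines. Stefins are small cysteine protease inhibitors, and the mouse carries a cluster of recently duplicated stefin A genes on chromosome 16 that are used in myeloid cells. The comparison described here set cluster 2 (stefin-rich) against cluster 3 (highest in the collagenase gene Mmp8) within each of the 6 libraries. The clusters were those that the study assigned at resolution 0.1. Clusters 2 and 3 held 17543 of 69776 kept cells (25.1%), of which 9629 were in cluster 2 and 7914 in cluster 3.

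The cells were CD11b+ bone marrow cells of 2-month-old C57BL/6 mice, with no treatment named in the labels, selected with antibody-coated magnetic beads and profiled by 3' single-cell RNA sequencing, and the libraries fell into 3 femur-derived and 3 mandibular-derived samples. Femur replicate 1 was female and the other 5 libraries were male. The labels name femurs and tibiae as the source of the femur group where the study's methods name femurs alone, and mandibular marrow was flushed after the molars had been pulled, with the sockets flushed too. The number of mice per library is not given in the sources used here, so p-values measure only the spread between these samples. Cluster 2 had between 972 and 2971 cells per library and cluster 3 had between 994 and 2293. Summed unique molecular identifiers (UMIs, 1 per captured RNA molecule) were between 6322651 and 17879987 per library in cluster 2 and between 6734719 and 16976281 in cluster 3.

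Because the authors made the clusters from the expression of these same cells, every difference between clusters 2 and 3 is a description of how the cells were sorted, and no test supports it. The step was compared between femur and mandible with a test. The site label was not an input of the clustering, but the integration before it aligned the captures, each of 1 site, so the clusters were not blind to the library. The step is the log2 difference of cluster 2 over cluster 3 in 1 library. Levels are UMIs per 1000000 UMIs summed over the cells of a library and cluster (CPM). Of 9364 genes tested with the library as a block, 48.3% passed an edgeR false discovery rate (FDR) of 0.05. Of the genes tested, 24.6% were higher in cluster 2 and 23.7% were lower. Scaling by total counts alone, without TMM factors, gave 3140 higher and 1502 lower against 2308 and 2217, and moved the median difference of all genes by 0.09. With a log2 difference of at least 1 as well, 331 genes (3.53%) were higher and 82 (0.876%) were lower. The libraries of the clusters did not overlap at all for 441 genes (4.71%).

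The study did not call these clusters neutrophils and described them by genes of polymorphonuclear and monocytic suppressor cells of the myeloid lineage. The deposited ImmGen reference label was neutrophil for all cells of cluster 2 and for 7913 of 7914 cells of cluster 3, and the MouseRNA reference label was granulocyte for 92.6% and 95.7%, with monocyte for most of the others. Median UMIs per cell were 5756 over all cells of cluster 2 and 6999.5 over all cells of cluster 3, and between 96.8% and 99.2% of the cells of each library and cluster had a G1 phase call. S100a9, S100a8, Retnlg, Tmsb4x and Malat1 were the 5 most abundant genes of both clusters.

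The leading difference lay in a pair of neighbouring stefin genes. Stfa2l1 (ENSMUSG00000059657) and Cstdc4 (ENSMUSG00000079597) lie close together on the plus strand of chromosome 16 in mm10, at chr16:36156811-36161953 and chr16:36184212-36188111. Their promoters are shown because both genes moved together, with that of Stfa2 for comparison, a close relative that moved far less. Each sequence is the RefSeq window on GRCm38.p6 from 250 bases before to 50 bases after the gene's start, read 5′ to 3′ on the gene's strand. The windows are chr16:36156561-36156860 (plus), chr16:36183962-36184261 (plus) and chr16:36408314-36408613 (minus). Capitals mark runs of at least 10 bases found in all 6 stefin promoters in the table, which are those of Stfa2l1, Cstdc4, Stfa1, Cstdc5, Stfa2 and Stfa3.
Stfa2l1: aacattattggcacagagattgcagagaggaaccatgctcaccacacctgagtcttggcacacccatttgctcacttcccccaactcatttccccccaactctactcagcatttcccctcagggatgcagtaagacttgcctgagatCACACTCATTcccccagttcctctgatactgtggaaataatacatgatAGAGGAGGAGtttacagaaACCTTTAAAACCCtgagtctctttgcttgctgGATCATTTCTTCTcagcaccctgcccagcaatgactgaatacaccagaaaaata
Cstdc4: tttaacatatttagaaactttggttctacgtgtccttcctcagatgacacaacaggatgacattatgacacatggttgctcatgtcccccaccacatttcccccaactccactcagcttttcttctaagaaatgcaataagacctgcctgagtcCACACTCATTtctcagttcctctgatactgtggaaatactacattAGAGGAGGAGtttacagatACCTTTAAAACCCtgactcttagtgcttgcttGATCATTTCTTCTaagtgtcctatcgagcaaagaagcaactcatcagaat
Stfa2: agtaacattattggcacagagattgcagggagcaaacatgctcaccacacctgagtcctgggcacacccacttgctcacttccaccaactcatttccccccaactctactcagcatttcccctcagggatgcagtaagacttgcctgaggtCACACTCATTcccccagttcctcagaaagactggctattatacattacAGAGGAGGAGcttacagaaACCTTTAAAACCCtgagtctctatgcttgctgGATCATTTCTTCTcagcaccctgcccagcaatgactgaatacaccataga

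In this window the Stfa2l1 promoter matched that of Stfa2 at 92.9% of aligned bases, and that of Cstdc4 at 76.5%. All 6 windows held the same 4 capital runs, 46 bases in all. None of the letters searched for C/EBP (TTGCNNAA), AP-1 (TGANTCA), E2F (TTTCCCGC) or PU.1 (GAGGAAGT), nor the longer NF-kB and interferon response motifs, was found on either strand in the windows of Stfa2l1, Cstdc4 or Stfa2. That says only that these letters are not in these 300 bases. Among the windows not printed, those of Stfa1 and Cstdc5 held the C/EBP letters and that of Stfa3 the AP-1 letters. Among all 27021 promoters of the table, 10.8% held the C/EBP letters, 7.93% the AP-1 letters, 1.62% the NF-kB letters, 1.11% the E2F letters, 3.49% the interferon response letters and 3.28% the PU.1 letters.

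Stfa2l1 measured 32.5, 89.1 and 85.6 CPM in cluster 3 of femur replicates 1 to 3 and 44.1, 44.5 and 47.7 CPM in cluster 3 of the mandible replicates. In cluster 2 it measured 2224, 2519 and 2862 CPM in the femur libraries and 1954, 2087 and 1819 CPM in the mandible libraries. The lowest library of cluster 2 was thus far above the highest of cluster 3, and the fitted difference was 5.26 ± 0.13 on the log2 scale (SE, n = 6 libraries), or 38.2-fold. Cstdc4 went from 28.8 ± 16.8 CPM (SD, n = 6) in cluster 3 to 2617 ± 421 CPM in cluster 2, a log2 difference of 6.48 ± 0.17 (SE). Its levels in cluster 2 ran from 1954 CPM in femur replicate 1 to 3119 CPM in femur replicate 2, and no library of cluster 3 exceeded 56.4 CPM.

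The other stefins differed by less. Stfa1 measured 149 ± 43.9 CPM in cluster 3 and 341 ± 99.3 CPM in cluster 2 (SD, n = 6), a log2 difference of 1.10 ± 0.05 (SE). Stfa2 differed by 0.95 ± 0.11, Cstdc5 by 0.96 ± 0.09, and Stfa3 by 0.40 ± 0.10. Cstdc6 differed by 1.22 ± 0.23, but from a level of only 1.25 CPM. For these 5 genes the levels of the clusters overlapped between libraries. Cstb, the widely expressed stefin B on chromosome 10, measured 58.0 CPM and 65.1 CPM and did not pass the threshold. Of 14 genes on the list of stefins and cystatins, 10 were in the files and 9 were tested. Of these, 8 were higher in cluster 2 and none lower, against 24.6% and 23.7% of all genes tested. Their median was 0.96 against -0.00094 over all genes tested. Reads of these paralogs can be hard to assign. Of the 50-base words in the last 419 bases of the longest Stfa2l1 transcript, 16.8% also occurred in Stfa2, and Cstdc4 shared no such word with the other stefins. Stfa1, Cstdc5 and Cstdc6 shared between 14.2% and 28.2% of their words with each other, so the split of counts among these 3 genes is uncertain. The split between Stfa2l1 and Stfa2 is uncertain too, since 14.7% of the Stfa2 words also occurred in Stfa2l1.

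**Figure D1:**
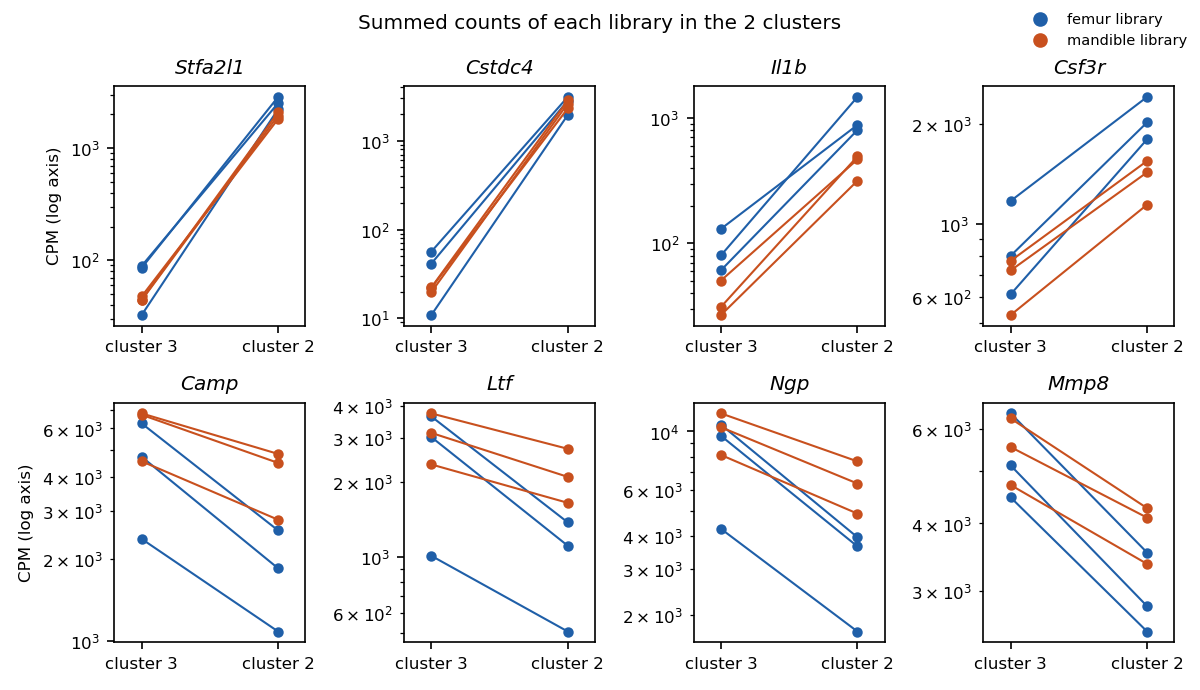
Level of 8 genes in CPM (log axis, 1 panel a gene) in cluster 3 and cluster 2, with a line for each of the 3 femur (blue) and 3 mandible (orange) libraries. Stfa2l1 and Cstdc4 rise steeply in every library, and Camp, Ltf and Ngp fall less steeply in the mandible libraries than in the femur libraries.

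At the level of single cells, with each cell thinned at random to 1000 UMIs so that depth was equal, between 61.8% and 72.6% of cluster 2 cells of a library had a Stfa2l1 UMI, against 3.37% to 6.88% of cluster 3 cells. For Cstdc4 the shares were 51.1% to 67.9% and 0.809% to 3.93%. Without thinning, Stfa2l1 was seen in 75.2% to 82.2% of cluster 2 cells. Cluster 6, which held 13705 to 27434 CPM of B-lineage markers, was taken for comparison as cells that should lack the gene, although 7.69% to 25% of its 39 to 394 cells per library carried the ImmGen neutrophil label, so its shares are not a pure measure of free RNA. The thinned Stfa2l1 share of cluster 6 was 2.56%, 7.59% and 5% in the femur libraries and 4%, 1.52% and 1.95% in the mandible libraries. In cluster 3 it was 3.59%, 6.88% and 6.59% against 3.37%, 3.71% and 4.23%, above cluster 6 of the same library in femur replicates 1 and 3 and mandible replicates 2 and 3, and below it in the other libraries. Median depth was 3103.5 to 5535 UMIs per cell in cluster 6, 5087 to 7106.5 in cluster 2 and 5985.5 to 9470 in cluster 3.

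When the counts of both genes were thinned jointly, the share of cluster 2 cells holding both was 27.8% to 39.7% per library, below the 35.6% to 46.8% that the product of the single shares gives, in 6 of 6 libraries. Between 2.80% and 8.41% of cluster 2 cells held neither. The clusters were made from the expression of these same cells, so this is a description of the cluster.

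Across the deposited clusters, the pair of stefins was highest in cluster 2 among clusters 4, 0, 3, 2 and 1 in 6 of 6 libraries. Cluster 4 and cluster 0 were the highest in Camp, at 43246 and 30396 CPM on average, and cluster 1 the lowest of these 5, at 1546 CPM. Stfa2l1 averaged 42.8, 93.3, 57.3, 2244 and 331 CPM in that order. Il1b, the proinflammatory cytokine, behaved differently: it averaged 63.5 CPM in cluster 3, 739 CPM in cluster 2 and 1902 CPM in cluster 1, and was higher in cluster 1 than in cluster 2 in each library. Csf3r, the receptor of granulocyte colony-stimulating factor, climbed through all 5 clusters in this order, from 190.0 to 410 to 768 to 1724 to 2659 CPM. Mmp8 was highest in cluster 3, at 5420 ± 798 CPM (SD, n = 6). The order of the clusters was set by hand from Camp and is no measured time course.

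**Figure D2:**
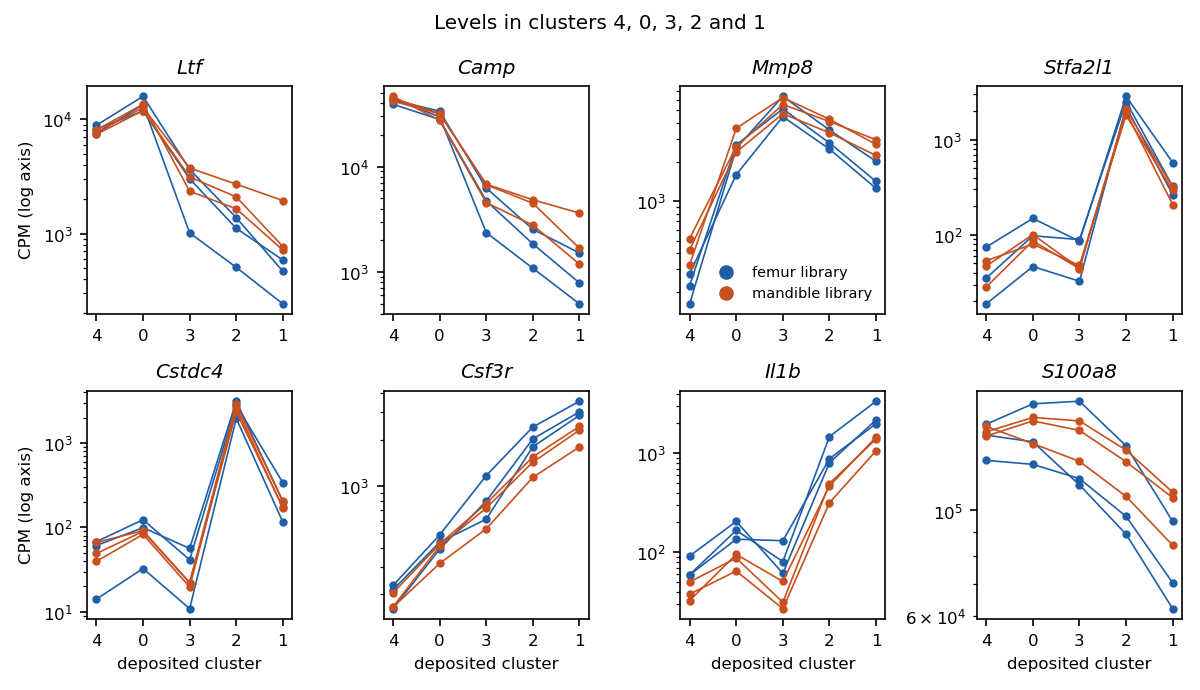
Level of 8 genes in CPM (log axis) in clusters 4, 0, 3, 2 and 1 of each library (blue, femur; orange, mandible). Stfa2l1 and Cstdc4 peak in cluster 2, Mmp8 peaks in cluster 3, and Csf3r increases along the axis.

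The deposited clustering at the finer resolution of 0.3 put 6586 cells of cluster 2 (68.4%) in a sub-cluster numbered 5 and 2888 (30.0%) in a sub-cluster numbered 10. Sub-cluster 10 held 27.8% to 33.2% of cluster 2 in each library. Its mean Stfa2l1 level was 3589 ± 688 CPM (SD, n = 6) against 1686 ± 273 CPM in sub-cluster 5, and its mean Ltf level was 1030 ± 808 CPM against 1705 ± 785 CPM. Its share was 30.8% ± 2.40 in femur libraries and 29.3% ± 1.55 in mandible libraries (SD, n = 3), which was not distinguishable by a two-sided exact permutation test (p = 0.5).

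Inflammatory genes were higher in cluster 2. Of 21 tested genes of this list, 16 were higher and 2 lower, with a median log2 difference of 0.63. The list counts here stand beside the 24.6% of all tested genes that were higher and the 23.7% that were lower. Il1b measured between 26.9 and 131 CPM in cluster 3 and between 316 and 1473 CPM in cluster 2, without overlap, and differed by 3.46 ± 0.14 (SE, n = 6). The chemokine genes Ccl4 (3.18 ± 0.14) and Ccl3 (2.45 ± 0.10), which attract monocytes and lymphocytes, and the prostaglandin synthase Ptgs2 (2.22 ± 0.11) were also higher, with Ccl4 at 3.93 CPM and Ccl3 at 7.48 CPM in cluster 3. Ccl6 went from 755 to 1882 CPM and Cxcl2, a neutrophil chemokine, differed by 1.64 ± 0.09. The exceptions on the list were Nfkb1 (-0.24 ± 0.04) and Tnf (-0.21 ± 0.08). Of the 26 tested interferon-stimulated genes, 18 were higher and 1, Ifitm3, was lower. Ifitm1 was the most changed of these, at 95.9 ± 48.4 CPM in cluster 3 and 522 ± 281 CPM in cluster 2 (SD, n = 6), and Slfn5, Oasl1 and Ifit3 differed by 1.53 to 1.70.

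The other large rises fixed by size were Steap4 (4.23 ± 0.24), a metalloreductase gene, Prr5l (4.17 ± 0.19), Cd244a (3.33 ± 0.13), an immune receptor gene, Wfdc17 (3.21 ± 0.06), Atf3 (2.96 ± 0.10), a stress-induced transcription factor gene, Sirpb1c (2.42 ± 0.11) and Gm19696 (2.42 ± 0.11). Wfdc17 spread widely between libraries, from 75.7 to 977 CPM in cluster 2, yet its step was steady, between 2.75 and 3.41 in every library. Sirpb1c belongs to a family of near-identical genes, so its counts are uncertain.

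Receptors of the circulating neutrophil were mostly higher. Among 14 tested cytokine receptors, 13 were higher and 1, Csf2ra, did not pass. The receptor counts stand beside 24.6% higher and 23.7% lower over all genes tested. Csf3r and Il1r2, the decoy receptor of interleukin-1, both differed by 1.09 ± 0.06, and Tnfrsf1b differed by 1.61 ± 0.09. Among 14 trafficking receptors, 10 were higher and 3 lower. Cxcr2, which draws neutrophils out of the marrow, went from 952 to 1241 CPM and differed by 0.30 ± 0.04, and Cxcr4, which holds neutrophils in the marrow, differed by -0.21 ± 0.04. Itgam, which encodes CD11b itself, was among the lower genes (-0.38 ± 0.03). Of 19 pattern and chemoattractant receptors, 11 were higher, led by Clec4d (0.97 ± 0.06) and Tlr6 (0.87 ± 0.07), and 5 were lower, led by Fcgr2b (-0.65 ± 0.08).

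Secondary granule genes were lower in cluster 2. Of 14 secondary granule genes, 13 were lower and 1, Hp, did not pass (0.03 ± 0.03), with a median log2 difference of -0.85. Over all genes tested, 23.7% were lower and 24.6% higher. Ngp, a neutrophil granule protein gene, measured 10605, 4263 and 9621 CPM in cluster 3 of the femur libraries and 8139, 11711 and 10372 CPM in cluster 3 of the mandible libraries. In cluster 2 it measured 3961, 1737 and 3656 CPM in the femur libraries and 4872, 7695 and 6339 CPM in the mandible libraries, so it was lower in cluster 2 in 6 of 6 libraries although the clusters overlapped across libraries. Femur replicate 2 was the lowest library in both clusters for Ngp, Camp and Ltf. Camp (-1.01 ± 0.10), Ltf (-0.98 ± 0.11), Cd177 (-0.99 ± 0.07), Lcn2 (-0.81 ± 0.06) and Itgb2l (-1.14 ± 0.08) were lower too. The list used for gelatinase granules, in which Mmp8 was counted, moved less, with a median of -0.36. Mmp8 (-0.75 ± 0.06), Mmp25 (-0.76 ± 0.05) and Mmp9 (-0.36 ± 0.04) were lower, while Adam8 and Slc11a1 did not pass. Mmp9 was still at 2350 ± 310 CPM in cluster 2 (SD, n = 6). Of 7 tested primary granule genes 1 passed, Srgn, the granule proteoglycan serglycin (0.87 ± 0.04), and the elastase gene Elane stood at 4.83 CPM in cluster 3 and 5.83 CPM in cluster 2.

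The largest falls fixed by size were modest. Those given here lay between -1.25 and -1.11 and were Abca13, Chil5, Acvrl1, Cd55, Serpinb1a, Nrp1, F730016J06Rik, Golim4, Itgb2l, Lhfpl2 and Ngp. Serpinb1a, an inhibitor of neutrophil elastase, went from 212 ± 34.7 to 104 ± 36.2 CPM (SD, n = 6). Cd55, a complement regulator, went from 104 ± 21.8 to 49.5 ± 12.7 CPM and its clusters did not overlap.

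Transcription factors of granulopoiesis moved in both directions. Cebpe, which is needed for secondary granules, was lower (-0.77 ± 0.07), as was Myb (-1.06 ± 0.13), while Cebpb (0.71 ± 0.05) and Cebpd (0.35 ± 0.03) were higher. In all, 7 of the 13 tested factors were higher and 5 lower, against 24.6% and 23.7% of all genes tested. Of the 8 Fos and Jun genes 7 were higher, among them Junb (1.02 ± 0.06) and Fosb (1.34 ± 0.07), and Fosl1 was lower (-0.64 ± 0.08). Of 12 tested Bcl2 family genes 9 were higher and none lower: both the protective Mcl1 (0.60 ± 0.05) and the death-promoting Pmaip1 (2.44 ± 0.13), Bcl2l11 (1.01 ± 0.08) and Bmf (1.10 ± 0.17) were among them. The near-identical Bcl2a1a and Bcl2a1b cannot be told apart with certainty.

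The counts of other cell functions stand beside the 24.6% of all tested genes that were higher and the 23.7% that were lower. Of 8 NADPH oxidase genes, which make the oxidative burst, 6 were lower, with a median of -0.26, and the catalytic subunit gene Cybb differed by -0.89 ± 0.09. Of 19 actin cytoskeleton genes 15 were lower, with a median of -0.13, led by Tmsb10 (-0.91 ± 0.05). Of 19 glycolysis and glycogen genes 12 were lower and 4 higher, with a median of -0.21, and the glucose transporter gene Slc2a1 was the highest of these (0.96 ± 0.05). Of 19 proteasome genes 11 were lower and Psmb8, of the immunoproteasome, was the 1 that was higher. Of 81 ribosomal protein genes 11 were higher and 23 lower. Of 7 S100 genes 3 were lower, S100a8 (-0.35 ± 0.04), S100a9 (-0.33 ± 0.04) and S100a13 (-0.60 ± 0.04). Of 13 tested cell cycle genes 1 passed, Pcna (0.50 ± 0.11). Of 8 nuclear envelope and chromatin genes 2 were higher and 2 lower. Of 12 genes that the study names for clusters 1 to 3, chosen by its authors on these libraries, 8 were higher and 1, Retnlg, was lower.

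**Figure D3:**
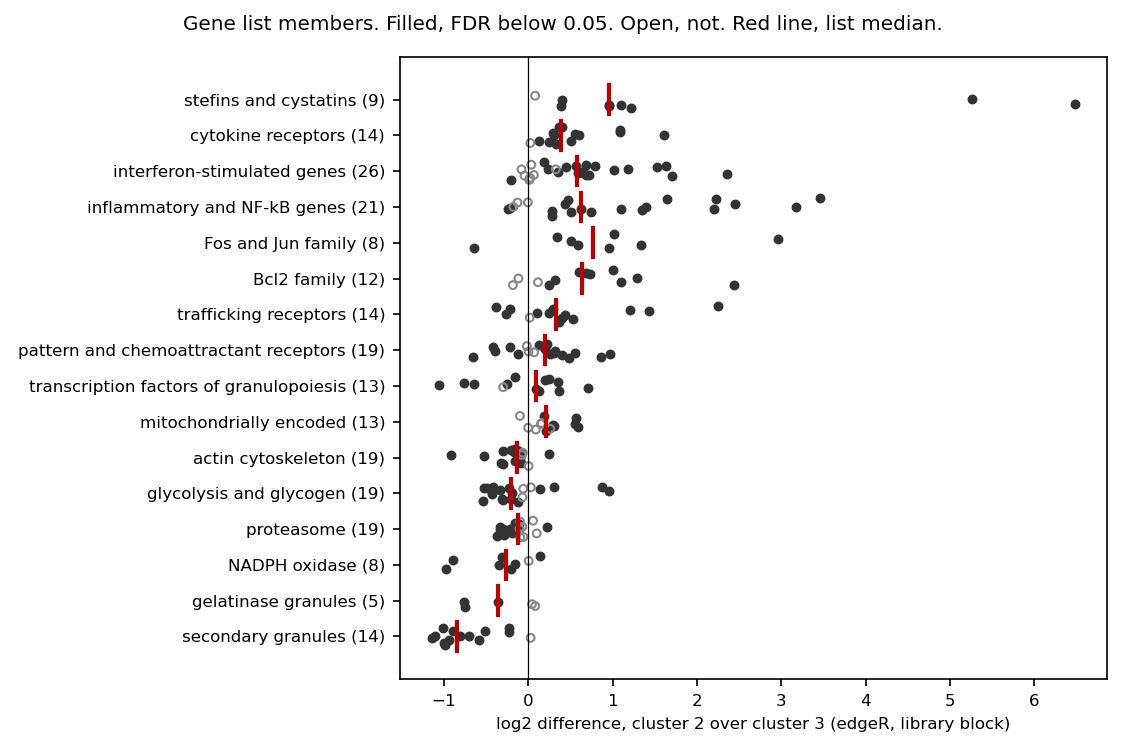
Log2 difference of cluster 2 over cluster 3 (horizontal axis) for each tested member of 16 gene lists, with the number of members in parentheses, filled points for members with an edgeR FDR below 0.05, open points for the others and a red line at the list median. Secondary granule genes lie to the left at a median of -0.85 and stefins to the right, with Stfa2l1 at 5.26 and Cstdc4 at 6.48.

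Markers of other cells were measured in both clusters. The level of 14 monocyte and macrophage markers was summed. In cluster 3 the sum was 968 to 1186 CPM in the femur and 1125 to 1189 CPM in the mandible libraries. In cluster 2 it was 695 to 798 CPM and 867 to 962 CPM, without overlap of the sites. The sum was lower in cluster 2 in every library. Yet 6 of the 11 tested genes were higher in cluster 2 and 1 lower, with a median of 0.60. Counts for other cells stand beside 24.6% of all tested genes higher and 23.7% lower. Apoe, from 11.1 to 48.2 CPM, and Csf1r, from 26.7 to 55.1 CPM, thus moved against the sum. Of these 11 genes, 1 passed the site term, against 1.25% of all genes tested. The part of the monocyte and macrophage markers in the step and in its site difference was not tested. The sums of the B-lineage markers reached 106 CPM in cluster 3 and 129 CPM in cluster 2, and 1 of 3 tested was higher. Erythroid markers reached 40.8 and 52.0 CPM, with 4 of 4 tested higher. In cluster 3 the platelet marker sums were 1.85 to 3.53 CPM in the femur and 4.17 to 9.35 CPM in the mandible libraries. In cluster 2 they were 1.62 to 2.95 CPM and 6.39 to 14.4 CPM. Of the platelet genes, 0 of 2 tested passed in the step, and 0 passed the site term. Their part in the site difference was not tested. T and natural killer cell markers reached 20.3 and 17.9 CPM, mostly from Cd3d at 16.9 and 13.8 CPM, the 1 tested gene of the list, which was lower. Of the others, Cd3e was at 0 in both clusters, Klrb1c at 0 in cluster 2 and at 2 UMIs in cluster 3, Ncr1 at 0 in cluster 3 and at 2 UMIs in cluster 2, while Cd3g had 28 and 62 UMIs and Nkg7 37 and 39. Of 4 tested tooth and bone genes 3 were higher, with a median of 1.11, while Dspp was at 0 in both clusters and Dmp1 at 0 in cluster 3. For 11 genes of tooth and bone cells the sums were 4.48 to 5.55 CPM in the femur and 17.9 to 38.0 CPM in the mandible libraries of cluster 3, and 3.38 to 10.4 CPM and 30.7 to 86.7 CPM in cluster 2, and their part in the site difference was not tested. In bulk sums like these, more cells of a type and more RNA per cell cannot be told apart.

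The skeletal site was compared next, and the question was whether the same step differed between femur-derived and mandibular-derived cells. Numbers of cells did not tell the sites apart. There were 1.04, 1.73 and 1.30 cluster 2 cells for each cluster 3 cell in the femur libraries and 1.11, 0.880 and 1.11 in the mandible libraries. The log2 ratio was 0.40 ± 0.37 for femur libraries and 0.04 ± 0.19 for mandible libraries (SD, n = 3), and the two-sided exact permutation test gave p = 0.3, where the smallest p that 3 against 3 libraries allow is 0.1.

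The size of the step in expression did differ, with a smaller step in the mandible in most genes of large change. An edgeR term for the difference of the step between sites passed an FDR of 0.05 in 117 of 9364 genes (1.25%), of which 105 had the higher log2 value in the mandible and 12 the lower. That split was 198 and 113 without femur replicate 2, and 178 and 50 without a filter on low counts. At an unadjusted p of 0.05 the share was 11%, and the steps of the 3 femur libraries did not overlap those of the 3 mandible libraries in 1556 genes (16.6%). Of the 105 genes, 90 were genes lower in cluster 2, which fell less in the mandible, and all 12 of the others were genes higher in cluster 2, which rose less there. Among the 82 genes lower in cluster 2 by at least 1 log2, the median step was -1.16 for femur and -0.70 for mandible libraries, and among the 331 genes higher by at least 1 log2 it was 1.34 and 1.12. The step was less negative in the mandible in 75 of those 82 genes, against 4815 of all 9364 genes with the higher value there. It was lower in the mandible in 229 of those 331, against 4549 of all 9364 genes.

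Secondary granule genes were the group with the most calls. Of 14 tested, 10 passed the site term against 1.25% of all genes. The step was less negative in the mandible in 13, against 51.4% of all genes with the higher value there. The step of Ngp was -1.42, -1.30 and -1.40 in the femur libraries and -0.74, -0.61 and -0.71 in the mandible libraries, and the fitted difference of mandible minus femur was 0.72 ± 0.06 (SE, n = 3 per site, edgeR FDR = 2.6e-06). For Camp, the cathelicidin precursor, the steps were -1.36, -1.13 and -1.30 against -0.71, -0.49 and -0.58, with a difference of 0.70 ± 0.07 (edgeR FDR = 2.2e-05). For Ltf the step was -1.28 ± 0.24 against -0.52 ± 0.06 (SD, n = 3), with a difference of 0.80 ± 0.09 (edgeR FDR = 0.00011). The 3 genes lie on chromosome 9 (Camp at chr9:109847379-109849617, Ngp at chr9:110419747-110423012, Ltf at chr9:111019271-111042767, mm10). For all 3 the femur and mandible libraries formed separate groups.

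The levels behind these steps are given for Camp. In cluster 3, Camp measured 4725, 2365 and 6259 CPM in the femur libraries and 4549, 6811 and 6731 CPM in the mandible libraries, and the sites overlapped. In cluster 2 it measured 1846, 1084 and 2540 CPM in the femur libraries and 2780, 4841 and 4488 CPM in the mandible libraries, and they did not. The site difference of the levels within a cluster was not tested. Among the other genes put on the secondary granule list, Chil3 (0.65 ± 0.07), Itgb2l (0.53 ± 0.07), Cd177 (0.47 ± 0.06), Lcn2 (0.38 ± 0.05), Ifitm6, Anxa1 and Lyz2 passed the site term. Mmp8, counted on the gelatinase granule list, passed too (0.39 ± 0.05). Cebpe, the factor named above, passed as well (0.42 ± 0.09). Syne1, a nuclear envelope protein gene, had a step of -1.24 ± 0.01 in the femur and -0.70 ± 0.11 in the mandible (SD, n = 3), and Cybb one of -1.09 ± 0.10 and -0.52 ± 0.05.

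**Figure D4:**
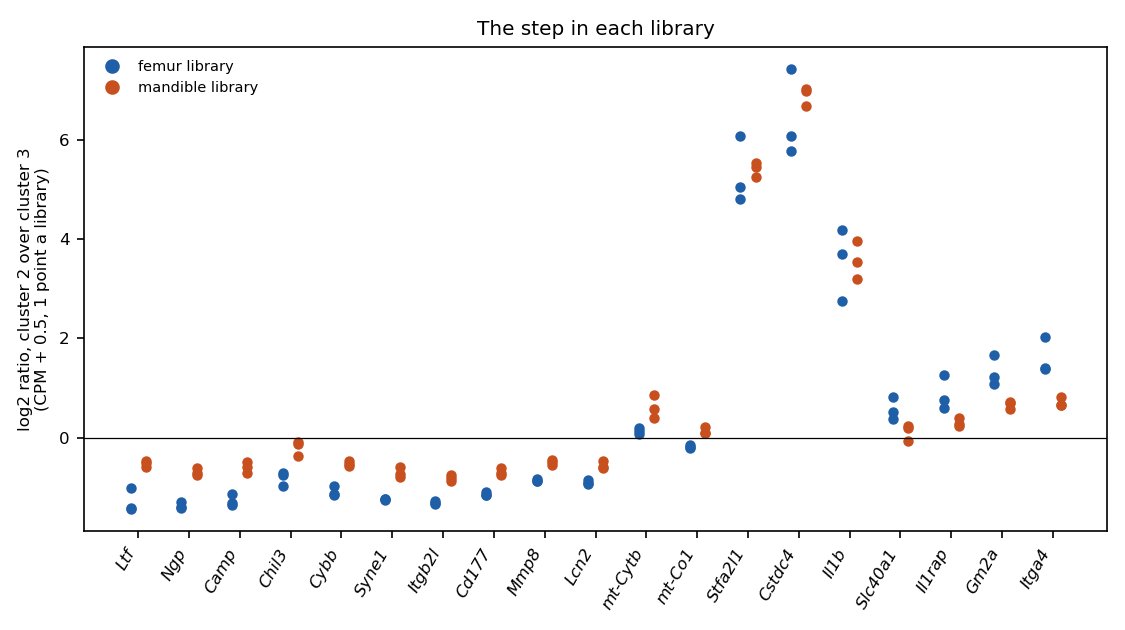
Step of 19 genes in each library, as the log2 ratio of cluster 2 over cluster 3 on CPM with 0.5 added (blue, 3 femur libraries; orange, 3 mandible libraries). Granule genes on the left lie nearer to 0 in the mandible, Stfa2l1, Cstdc4 and Il1b overlap between sites, and Itga4 at the right has steps of 1.38 to 2.03 in the femur and 0.65 to 0.82 in the mandible.

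Single cells were compared by the summed UMIs of the leading granule genes. These genes passed the site term in the same libraries, so the comparison is a description and no separate support for it. The sum of Ltf, Camp and Ngp was expressed per 10000 UMIs of the cell. Its median over cluster 2 cells was 10.2 to 23.3 in the femur libraries and 14.6 to 23.5 in the mandible libraries, which overlap. Its 90th percentile was 48.6 to 177 in the femur libraries and 215 to 364 in the mandible libraries, which do not overlap (two-sided exact permutation test p = 0.1, the smallest possible). In cluster 3 the 90th percentile was 183 to 405 and 307 to 424 (exact permutation p = 0.7).

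UMIs of these abundant genes were also seen in cluster 6. After thinning to 1000 UMIs, the share of cluster 6 cells with a Camp UMI was 30.8%, 44.3% and 51.7% in the femur libraries and 29.0%, 30.2% and 37.4% in the mandible libraries. In cluster 2 it was 41.5%, 41.2% and 63.1% against 44.4%, 50.9% and 56.2%, below that of cluster 6 in femur replicate 2 and above it in the other 5 libraries. The Ltf shares of cluster 2 were 22.2%, 22.3% and 31.1% in the femur libraries and 24.8%, 36.7% and 33.9% in the mandible libraries. Those of cluster 6 were 12.8%, 22.2% and 33.3% against 18%, 12.7% and 16%, so cluster 2 was above cluster 6 in 4 libraries, about level with it in femur replicate 2 and below it in femur replicate 3. Of the cluster 6 cells, 7.69%, 22.2% and 25% in the femur libraries and 17%, 10.9% and 9.69% in the mandible libraries had the neutrophil label, and the part of these cells in the shares was not tested. Without thinning, a Camp UMI was seen in 81.5% to 97.9% of cluster 2 cells and in 62.4% to 96.7% of cluster 6 cells. The part of free RNA in the site difference was not tested.

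**Figure D5:**
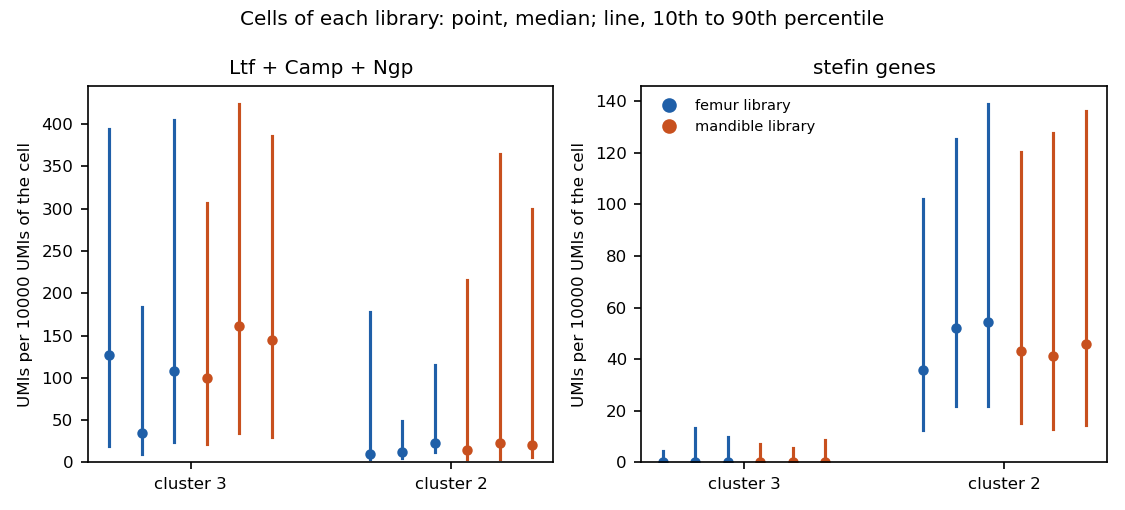
Summed UMIs of Ltf, Camp and Ngp (left) and of the stefin genes (right) per 10000 UMIs of a cell, in cluster 3 and cluster 2 of each library (blue, femur; orange, mandible), with the median as a point and the 10th to 90th percentile as a line. In cluster 2 the lines for the granule genes reach 215 to 364 in the mandible libraries and 48.6 to 177 in the femur libraries, while those for the stefins reach 120 to 136 and 102 to 139.

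The stefins themselves were not told apart by site. None of the 9 tested passed the edgeR site term, and 2, Cstdc4 and Cst3, had an unadjusted p below 0.05. Stfa2l1 had a step of 5.31 ± 0.67 in the femur and 5.41 ± 0.15 in the mandible (SD, n = 3, edgeR FDR = 0.80), and Cstdc4 one of 6.43 ± 0.88 and 6.89 ± 0.18 (edgeR FDR = 0.29). Il1b had 3.54 ± 0.73 and 3.56 ± 0.39. The steps spread widely between the femur libraries, with Cstdc4 at 7.42, 5.78 and 6.08, so 3 libraries per site leave these differences undetermined.

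Of the genes that rose less in the mandible, Itga4, the integrin alpha 4 chain that binds VCAM-1, had the largest difference of the 12. It measured 28.5, 30.6 and 20.3 CPM in cluster 3 and 74.9, 82.0 and 84.7 CPM in cluster 2 of the femur libraries. In the mandible libraries it measured 22.4, 21.4 and 19.0 CPM and 39.9, 34.2 and 30.2 CPM, so the site difference of the step was -0.88 ± 0.15 (edgeR FDR = 0.0043). Gm2a, which encodes an activator of ganglioside breakdown (-0.65 ± 0.13), Il1rap, the accessory chain of the interleukin-1 receptor (-0.58 ± 0.12), Slc40a1, the iron exporter ferroportin (-0.43 ± 0.09), Parp8 (-0.37 ± 0.07) and Gcnt2 (-0.36 ± 0.07) followed, and Tlr4 passed too (-0.45 ± 0.10). The calls in this direction moved with single libraries. Without mandible replicate 1 only 1 gene of the whole table passed with the lower value in the mandible, and Itga4 alone of these 7 kept its call (edgeR FDR = 0.038). Without femur replicate 3, mandible replicate 2 and mandible replicate 3, 5, 3 and 5 genes passed in this direction. The sign of the 7 differences was negative in all 18 alternatives.

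Mitochondrially encoded genes had a higher step in the mandible. Of 13 genes, 7 passed the site term, against 1.25% of all genes tested. The value was higher in the mandible in 13, against 51.4% of all genes tested. The step of mt-Cytb was 0.08, 0.19 and 0.14 in the femur libraries and 0.41, 0.57 and 0.86 in the mandible libraries, a difference of 0.50 ± 0.09 (edgeR FDR = 0.0053), and mt-Co1 differed by 0.34 ± 0.06. The others were mt-Co2, mt-Co3, mt-Atp6, mt-Nd4 and mt-Nd5. Of the 7, only mt-Cytb, mt-Atp6 and mt-Nd4 passed in the step itself. The median deposited mitochondrial share of a cell was 0.193% to 0.238% for femur and 0.292% to 0.359% for mandible libraries in cluster 2. In cluster 3 it was 0.246% to 0.315% and 0.289% to 0.376%, and the sites overlapped. From cluster 3 to cluster 2 this median went from 0.376% to 0.359%, 0.324% to 0.309% and 0.289% to 0.292% in the mandible libraries. The summed level of the 13 genes there went from 4709 to 5682, 3945 to 4827 and 3782 to 5416 CPM. In the femur libraries the median fell, from 0.315% to 0.238%, 0.280% to 0.229% and 0.246% to 0.193%. The summed level in the femur libraries went from 3620 to 3611, 3331 to 3542 and 2924 to 2865 CPM. The part of the mitochondrial share in the site difference was not tested. Of the inflammatory and Fos and Jun lists, Nfkbia (0.40) and Fosl1 (0.51) passed the site term.

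Sex was not balanced, and the fit without femur replicate 1 compares male libraries alone. It called 153 genes for the site term, and 103 of the 117 genes were among them. The site term called 311 genes without femur replicate 2 and 48 without femur replicate 3. Without mandible replicates 1, 2 and 3 it called 46, 42 and 60 genes. Ngp, Camp, Ltf, Cybb, Syne1, Chil3, Itgb2l, Cd177, Lcn2 and Mmp8 passed in each of these 6 fits and in the other 12 alternatives. Some of these differences were over 1.5 times as large in sub-cluster 10 alone, an alternative chosen after seeing the data, where Ltf differed by 1.67, Camp by 1.36, Ngp by 1.28, Chil3 by 1.15, Cybb by 0.96, Syne1 by 0.85 and Itgb2l by 0.82. Other calls were lost when 1 library was left out. Anxa1, Lyz2, Cebpe, Fosl1, mt-Co2, mt-Co3 and mt-Nd5 each lost theirs without femur replicate 3 and without each mandible replicate. Itga4 was lost without mandible replicate 2 (edgeR FDR = 0.051), and mt-Cytb without femur replicate 3 (edgeR FDR = 0.055).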

How the data were processed

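CD11b+ marrow cells from 3 femur and 3 mandible samples were profiled with 10x Genomics 3' chemistry. Per the file headers, each matrix lists UMI counts (whole numbers, not normalised) by gene and barcode, aligned by the authors to mm10. The submitters' processing notes list Cell Ranger 7.0.1, R 4.1.0 and Seurat, while the matrix headers give 7.1.0. Whether counting used strand is not given in the sources used here. A cell table deposited by the authors holds UMI and gene counts, mitochondrial percent, cluster numbers, phase calls and reference labels. It contains cells that passed their limits (600 to 6000 genes, at most 20 percent mitochondrial), with clusters found after SCTransform and integration. Per the study's methods, SCTransform regressed out the mitochondrial content and the cell cycle score difference, so the clusters were made with these reduced. A second deposited table, with log2 fold changes and p-values of the authors' own cluster comparisons, was not used. Recounted UMIs equalled the table's in 99.7% to 100% of cells per sample.

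Raw counts were summed by library for cluster 2 and for cluster 3. The main test was edgeR 4.0.16 quasi-likelihood in R 4.3.3, with TMM scaling, filterByExpr, the library as block and Benjamini-Hochberg adjustment over 9364 genes. Site was tested as a cluster-by-site term. The SE of a fitted difference was derived from the test, as the absolute log2 estimate over the square root of the quasi-likelihood F. Steps per library are log2 ratios of CPM plus 0.5, without TMM. Cell ratios and per-cell quantiles were compared by exact permutation. The procedure was also run on simulated counts with the same dispersion for every gene, and no result given here rests on that run. No doublet caller was run, and an alternative left out the 5 percent of cells with the most UMIs. Of 17505 barcodes, 38 occurred in at least 2 libraries. Thinning to 1000 UMIs left out 2 cells of clusters 2 and 3 and 1 cell of cluster 6. Shares of cells are given for each library without an error estimate, and the spread between libraries is seen only by comparing them.

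Members and gene lists were chosen with earlier results of these data known. Named genes were the 12 largest rises and the 12 largest falls (FDR under 0.05, same direction in 6 libraries, at least 20 CPM), all members of lists of up to 16 genes and the 4 largest changes of longer lists, the 6 smallest p-values of the site term in each direction, the genes the study names for clusters 1 to 3, and the 5 most abundant genes. Genes named as the exceptions of a longer list, Cxcl2 and Nfkbia were chosen after their values were seen. Some genes that the rule names are not reported here. Motif shares among changed genes are not given, since only 72.2% of the 331 rises had a promoter in the RefSeq table (GRCm38.p6) and the check is void. Gene positions are from GENCODE vM21 on mm10. Alternatives were other scalings, DESeq2 1.42.0, no filter, each library left out, other choices of cells and other blocks. The sub-clusters were added as alternatives after seeing the data.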

Additional observations from a re-analysis of the deposited data

Results flagged for a closer look

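The site difference of the step was picked out because femur and mandible gave different values of the same contrast by the cluster-by-site term (edgeR, FDR below 0.05, 3 libraries per site), in 117 genes. All values here are mandible minus femur on the log2 scale. The granule genes and their companions were Ltf at 0.80, Ngp at 0.72, Camp at 0.70, Chil3 at 0.65, Cybb at 0.60, Syne1 at 0.57, Itgb2l at 0.53, Cd177 at 0.47, Cebpe at 0.42, Mmp8 at 0.39, Ly6g at 0.39, Lcn2 at 0.38, Ifitm6 at 0.32, Anxa1 at 0.32 and Lyz2 at 0.29, each lower in cluster 2 and less so in the mandible. The mitochondrially encoded genes were mt-Cytb at 0.50, mt-Nd5 at 0.43, mt-Nd4 at 0.38, mt-Co3 at 0.37, mt-Atp6 at 0.36, mt-Co1 at 0.34 and mt-Co2 at 0.29. The regulators were Fosl1 at 0.51 and Nfkbia at 0.40. The genes with a smaller rise in the mandible were Itga4 at -0.88, Gm2a at -0.65, Il1rap at -0.58, Tlr4 at -0.45, Slc40a1 at -0.43, Parp8 at -0.37 and Gcnt2 at -0.36.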

How the results depend on the processing

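The step called 3456 to 4642 genes under the alternatives that kept the library as a block, against 4525, and 1551 genes with no replicate block. The count of genes with a site difference moved more. From 117 it became 228 without a filter on low counts, 72 with equal numbers of cells, 73 in sub-cluster 5 alone and 199 with a replicate block by the number in the library name (4 male libraries), and it ranged from 42 to 311 when 1 library was left out, with 1 to 113 of these lower in the mandible. The causes were not tested. Under the other alternatives it was 83 (DESeq2) to 140, with 90 in sub-cluster 10. Libraries of the same title number did not deviate together in the step (correlations of -0.07 to -0.02), while the pairs sharing the number in the library name had correlations of 0.03 and 0.05, the second the highest of all 9 pairs and both under 0.1. A replicate block by title number called 103 genes, of which 95 were among the 117. None of the 117 genes changed sign in any alternative. In the step, 1 called gene changed sign under total counts and 2 in sub-cluster 10. The site difference of the log2 cell ratio lay between -0.64 and -0.17. Differences smaller than the spread of 3 libraries per site were not detectable, and genes near 1 CPM rest on few UMIs.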
